A study of Mus musculus with 7 samples.

Results

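The genes described here are 42 macrophage identity and activation genes, from a list chosen with earlier results of these data known. They were taken by gene symbol, and each was read through its brightest probe set. The arrays measured 41 of them, and 1, Spp1, which encodes osteopontin, was not analysed here. They stand among 19938 genes measured by a probe set with a single gene symbol. Total RNA was prepared from hindlimb muscle, the fast extensor digitorum longus (EDL), of 3 AMPKα1α2 double knockout mice and 4 wild type mice, with 1 array per mouse. Both genotypes were on a mixed C57/Bl6 and SV129 background. AMPK is the kinase by which cells sense a shortage of ATP, and α1 and α2 are its catalytic subunits. The labels do not give the promoter or Cre line of the deletion, the age or sex of the mice, or whether the macrophages of the muscle carry the deletion too. Values are the deposited ones on a log2 scale, so a difference of 1 is a 2-fold change.

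Macrophages are phagocytes that sit in every tissue, where they clear dead cells and debris and release signals to their neighbours. In skeletal muscle a resident population lies between the fibres, and after damage monocytes enter from blood and mature into macrophages that first remove debris and later accompany fibre repair. Resident cells are known for scavenger and folate receptors, newly arrived cells for integrins and monocyte receptors, and cells that are digesting debris for lysosomal and lipid-associated proteins. The list was therefore read in 5 role groups: core macrophage genes, genes of several leukocyte kinds (pan-leukocyte), resident markers, monocyte-derived markers and phagocytic genes.

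Start-site sequence is shown for 4 of these genes because PU.1, the factor encoded by the member Spi1, drives much of the macrophage programme through the so-called PU box. The windows are the 250 bases before the start site given by RefSeq (GRCm38.p6), written 5′ to 3′ on the strand of the gene, with every PU box (GAGGAA, or TTCCTC where it lies on the opposite strand) in capitals. The 4 genes were chosen after the search: Lyz2 because it alone passed the test, Itgam and Cd68 because their windows held the motif and their differences had small p, and Mrc1 because its window held the most boxes. Itgam and Cd68 were picked by hand, since Laptm5, which is not shown, also had a box and a smaller p. The windows lie at chr10:117282273-117282522 (minus strand) for Lyz2, chr7:128062390-128062639 (plus strand) for Itgam, chr11:69666171-69666420 (minus strand) for Cd68 and chr2:14229164-14229413 (plus strand) for Mrc1.
Lyz2: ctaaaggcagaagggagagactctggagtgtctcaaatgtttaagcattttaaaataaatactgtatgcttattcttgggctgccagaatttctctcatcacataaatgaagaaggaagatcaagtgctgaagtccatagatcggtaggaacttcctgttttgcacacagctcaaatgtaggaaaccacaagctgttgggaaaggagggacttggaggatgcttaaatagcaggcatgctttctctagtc
Itgam: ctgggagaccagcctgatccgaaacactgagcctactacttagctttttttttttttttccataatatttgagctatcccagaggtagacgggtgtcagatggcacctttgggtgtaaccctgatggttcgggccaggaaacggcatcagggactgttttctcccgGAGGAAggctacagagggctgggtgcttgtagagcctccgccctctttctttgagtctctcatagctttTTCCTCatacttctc
Cd68: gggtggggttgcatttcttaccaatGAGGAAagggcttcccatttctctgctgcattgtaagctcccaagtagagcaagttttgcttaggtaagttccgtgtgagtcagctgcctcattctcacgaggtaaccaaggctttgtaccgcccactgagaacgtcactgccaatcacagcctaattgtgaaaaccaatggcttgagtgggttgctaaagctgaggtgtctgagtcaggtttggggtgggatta
Mrc1: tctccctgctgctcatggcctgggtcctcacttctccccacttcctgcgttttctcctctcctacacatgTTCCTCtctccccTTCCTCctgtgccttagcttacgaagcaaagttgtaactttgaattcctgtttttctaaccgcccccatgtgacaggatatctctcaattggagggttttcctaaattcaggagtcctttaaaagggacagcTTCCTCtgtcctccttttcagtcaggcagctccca
The Lyz2 window held 0 boxes, the Itgam window 2, the Cd68 window 1 and the Mrc1 window 3. RefSeq gave a window for 32 of the 41 measured members, and 13 of the 32 (40.6%) held at least 1 PU box. Of all 32851 windows of 250 bases, 23.3% did. Each member was read through 1 window, while all windows were counted without reduction to 1 per gene, so the sets are unlike. A motif bound by C/EBP factors (TTGCNNAA, where N is any base, or TTNNGCAA on the opposite strand) was found in 2 of the 32 member windows (6.25%) and in 9.56% of all windows. These are matches of letters in short windows and describe the windows alone.

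The arrays were of similar overall brightness, with medians of all probe sets from 7.52 to 7.58 in knockout and from 7.50 to 7.54 in wild type muscle. The targeted genes were lower in knockout muscle, Prkaa1 by 0.51 ± 0.09 and Prkaa2 by 0.21 ± 0.07 on the log2 scale (± is the standard error throughout, unless marked SD), although neither passed (adjusted p = 0.12 and 0.39, limma). The labelled tissue was checked on 12 markers of fast muscle fibres, whose mean level was 13.78 on each of the 3 knockout arrays and between 13.75 and 13.80 on the wild type arrays. Knockout replicate 2 stood apart from the other knockout arrays for several members, as described below. RNA was taken from whole muscle, so more macrophages and more RNA of these genes per macrophage cannot be told apart in any result that follows.

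Macrophage genes lay higher in knockout muscle across most of the list. Of the 41 measured members, 37 had a positive difference and 4 a negative one, with a median of 0.37 against a median of 0 over all genes, and the values ran from -0.07 for Timd4 to 1.18 for Cd68. Lyz2 alone passed the threshold (adjusted p under 0.05, limma with Benjamini-Hochberg adjustment), in a comparison where 0.0251% of all genes passed in either direction. At an adjusted p under 0.10 there were 8 members, all higher, against 0.241% of all genes higher. At an unadjusted p under 0.05 there were 29 higher and 0 lower (70.7% of the measured members, against 3.93% of all genes higher). All 3 knockout arrays lay above all 4 wild type arrays for 28 members (68.3%, against 3.29% of all genes). The list was chosen with earlier results of these data known, so these shares are descriptive and no test over the list was run. With 1 array left out in turn, between 26 and 29 members were higher at an unadjusted p under 0.05, newly passing ones included. Of the original 29, between 24 and 28 passed in each such fit, and 22 passed in all 7. The count of 8 was again 8 without knockout replicate 1, but it was 1 without knockout replicate 2 or 3 or wild type replicate 1, 2 or 4, and 2 without wild type replicate 3.

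**Figure D1:**
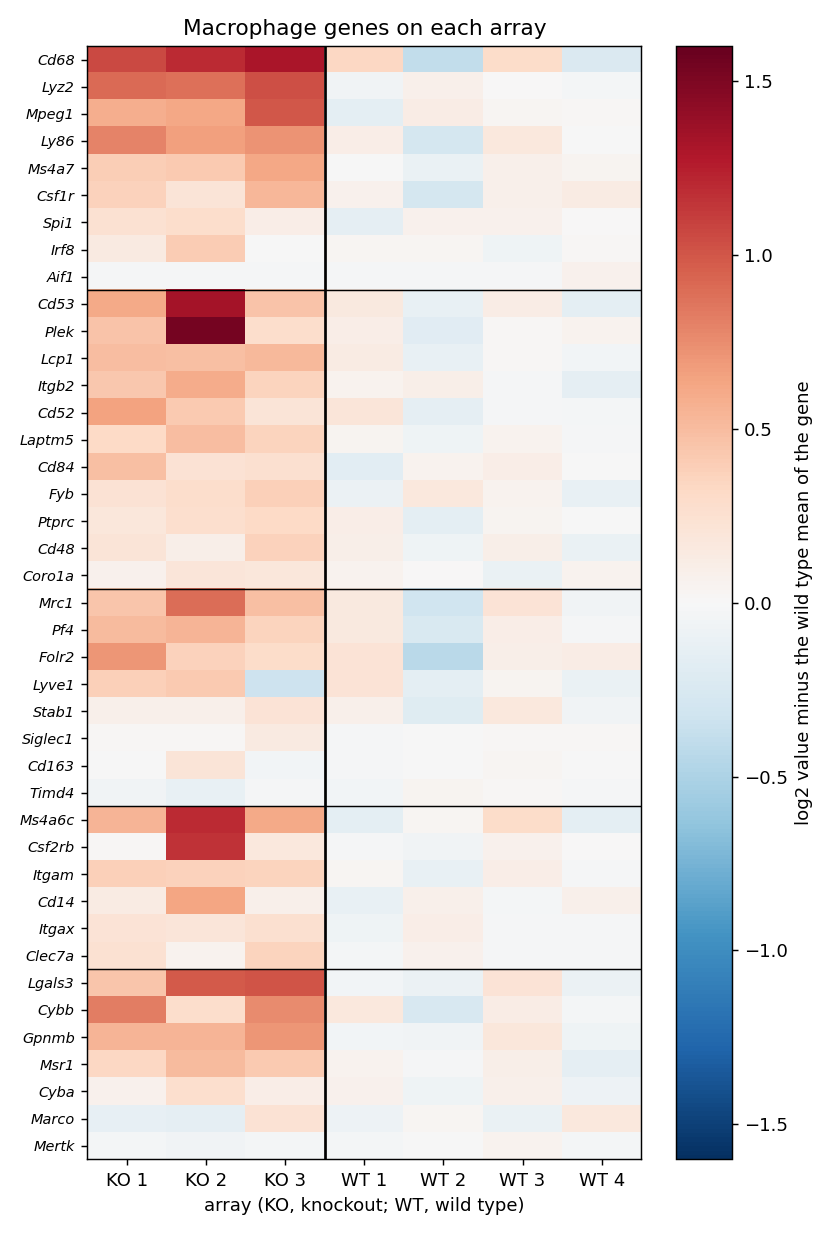
Log2 value of each of the 41 measured members on each array minus the mean of that gene over the wild type arrays, with the 3 knockout (KO) arrays left of the 4 wild type (WT) arrays and black lines between core macrophage, pan-leukocyte, resident, monocyte-derived and phagocytic genes from top to bottom. Red cells, above the wild type mean, fill most of the knockout columns, and the darkest stand for Plek, Cd53, Ms4a6c and Csf2rb in knockout replicate 2 and Cd68 in all 3.

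The shift was present on each knockout array. The median over the 41 members, relative to the wild type mean of each gene, was 0.37, 0.41 and 0.35 on knockout replicates 1 to 3, and 0.03, -0.06, 0.06 and -0.02 on wild type replicates 1 to 4. By role, the median difference was 0.48 for the 9 core macrophage genes, 0.39 for the 11 pan-leukocyte genes, 0.14 for the 8 resident markers, 0.32 for the 6 monocyte-derived markers and 0.42 for the 7 measured phagocytic genes. The unadjusted threshold was passed, in the upward direction, by 7 of 9, 11 of 11, 3 of 8, 4 of 6 and 4 of 7 in the same order. Over all genes 3.93% passed it upward. The resident median was the lowest of the 5, and it moved to 0.25 without knockout replicate 3 and to 0.09 without wild type replicate 2. Some resident probe sets varied little in wild type muscle. Siglec1 took 4 distinct values over the 7 arrays and Cd163 took 5, each with a wild type SD of 0.015. A probe set of few distinct values also stood among the core macrophage genes (Aif1, 3 values). The response of these probe sets to their genes was not tested. Whether the role groups differ from each other was not tested, and the groups are small.

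**Figure D2:**
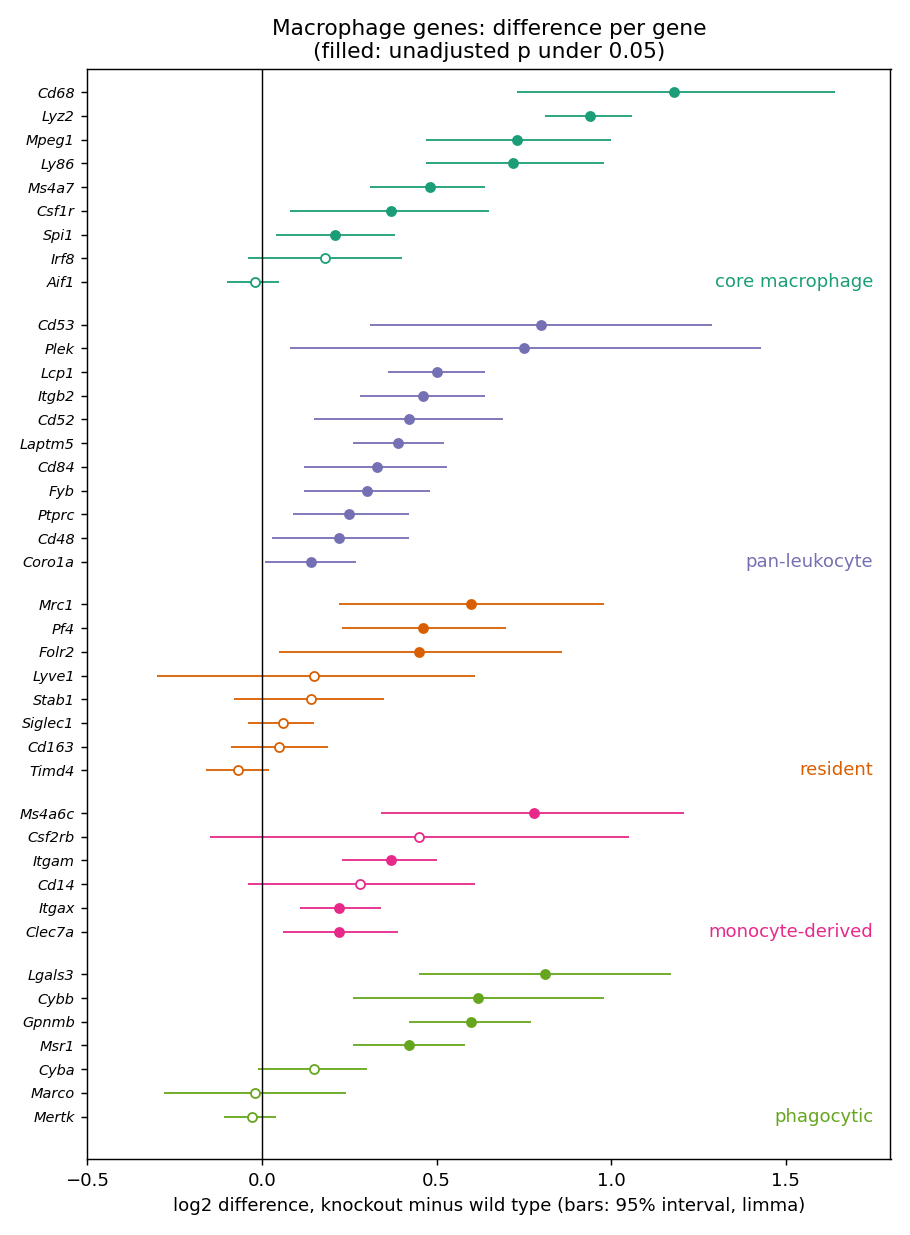
Log2 difference of each member, knockout minus wild type, with its 95% interval from limma, grouped by role. Filled points have an unadjusted p under 0.05, and they make up all 11 pan-leukocyte genes and 3 of the 8 resident markers (3.93% of all genes were higher at that threshold).

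Core macrophage genes held both the member with the smallest p, Lyz2, and the one with the largest difference, Cd68. Lyz2 encodes the lysozyme that macrophages and other myeloid cells use against bacterial walls, and it read 11.48, 11.46 and 11.61 on knockout replicates 1 to 3, against 10.52, 10.66, 10.58 and 10.55 on wild type replicates 1 to 4. The genotypes were clearly apart, and the spread within each was small (SD 0.085 in knockout and 0.059 in wild type). Lyz2 rose by 0.94 ± 0.05 (1.91-fold, adjusted p = 0.0088, limma). That call was lost without wild type replicate 1 (adjusted p = 0.095), 3 (0.066) or 4 (0.099), while the difference itself stayed between 0.89 and 0.97 in all 7 such fits. Lyz1, a close copy of Lyz2 looked up after the values were seen, read 10.24, 10.15 and 9.34 in knockout against 9.43, 9.48, 9.42 and 9.48 in wild type muscle, so knockout replicate 3 was below the wild type arrays. Which part of either signal comes from the other gene cannot be told apart on these probe sets.

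Cd68, a lysosomal membrane protein of phagocytes, read 9.04, 9.18 and 9.29 in knockout muscle, against 8.32, 7.59, 8.28 and 7.76 in wild type muscle, where the spread was wide (SD 0.37). The difference was 1.18 ± 0.19 (2.27-fold, adjusted p = 0.11). Mpeg1, the pore-forming perforin-2 of macrophages, read 7.47, 7.50 and 7.88 in knockout against 6.73, 7.00, 6.92 and 6.90 in wild type muscle, a difference of 0.73 ± 0.11 (adjusted p = 0.096). Ly86, which encodes the MD-1 partner of the Toll-like receptor homologue RP105, read 8.48, 8.35 and 8.40 in knockout against 7.80, 7.41, 7.86 and 7.68 in wild type muscle (0.72 ± 0.11, adjusted p = 0.095). In these 3 genes no knockout array came near the wild type range. Ms4a7, a membrane protein of mature macrophages, read 6.58, 6.61 and 6.81 in knockout and 6.18, 6.08, 6.27 and 6.23 in wild type muscle (0.48 ± 0.07, adjusted p = 0.095).

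Regulators of the lineage differed by less. Csf1r, the receptor for the growth factor on which macrophages depend, read 8.96, 8.80 and 9.12 in knockout against 8.66, 8.31, 8.68 and 8.73 in wild type muscle. Its genotypes did not overlap but came close, at a difference of 0.37 ± 0.12 (adjusted p = 0.37). Spi1, which encodes PU.1, read 7.76, 7.80 and 7.62 in knockout against 7.37, 7.59, 7.59 and 7.52 in wild type muscle (0.21 ± 0.07, adjusted p = 0.38). Irf8, a transcription factor of monocytes, overlapped between genotypes, with a difference of 0.18 ± 0.09. That difference was 0.27 when knockout replicate 3 was left out and 0.07 when knockout replicate 2 was. Aif1, the calcium-binding protein IBA1 often stained to show macrophages, read 6.73 on all 3 knockout arrays and on wild type replicates 1 to 3, and 6.82 on wild type replicate 4. It lay under the lower quartile of all named probe sets (6.76) and took only 3 distinct values over the 7 arrays, and its difference was -0.02 ± 0.03.

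**Figure D3:**
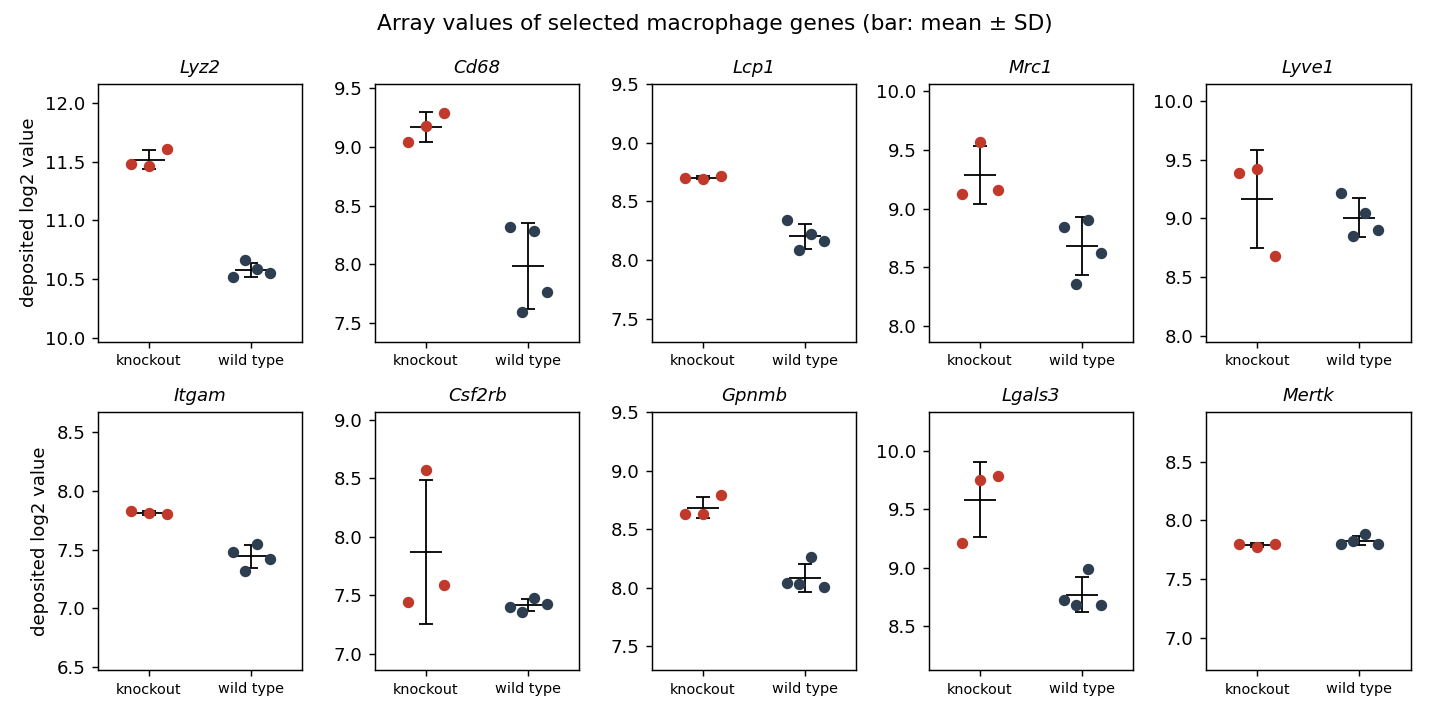
Deposited log2 values of 10 members on the 3 knockout (left, red) and 4 wild type (right, blue) arrays, with the mean and SD as black bars, on axes that span the same number of log2 units. Lyz2, Cd68, Lcp1, Itgam and Gpnmb separate the genotypes, Csf2rb is high on 1 knockout array, Lyve1 overlaps and Mertk lies on 1 level.

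All 11 pan-leukocyte genes lay higher in knockout muscle at an unadjusted p under 0.05 (3.93% of all genes did so). For 10 of the 11 the genotypes did not overlap (3.29% of all genes), although none passed at an adjusted p under 0.05. Lcp1, the actin-bundling L-plastin, read 8.70, 8.69 and 8.72 in knockout against 8.34, 8.09, 8.22 and 8.16 in wild type muscle (0.50 ± 0.06, adjusted p = 0.083). Laptm5, a lysosomal protein of blood cells, read 8.68, 8.86 and 8.72 in knockout against 8.41, 8.29, 8.42 and 8.34 in wild type muscle (0.39 ± 0.06, adjusted p = 0.095). Itgb2, the common β chain of the leukocyte integrins, read 8.12, 8.28 and 8.05 in knockout against 7.75, 7.79, 7.67 and 7.55 in wild type muscle (0.46 ± 0.08, adjusted p = 0.11). These 3 had a knockout spread well under the difference.

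Ptprc is CD45, the phosphatase that defines leukocytes. It read 7.64, 7.73 and 7.78 in knockout against 7.57, 7.31, 7.51 and 7.46 in wild type muscle, and differed by 0.25 ± 0.07 (adjusted p = 0.27). Fyb, an adaptor that links receptors to integrin activation, read 6.68, 6.73 and 6.82 in knockout against 6.35, 6.61, 6.50 and 6.32 in wild type muscle (0.30 ± 0.08). Cd84, an adhesion receptor of the SLAM family, read 7.33, 7.07 and 7.10 in knockout against 6.68, 6.90, 6.95 and 6.84 in wild type muscle (0.33 ± 0.09). Its relative Cd48 read 6.94, 6.82 and 7.10 in knockout against 6.82, 6.66, 6.82 and 6.62 in wild type muscle (0.22 ± 0.08), and was the 1 gene of the group whose genotypes touched. Cd52, a small glycoprotein of leukocytes, read 7.76, 7.54 and 7.33 in knockout against 7.31, 6.98, 7.10 and 7.09 in wild type muscle (0.42 ± 0.11). Coro1a, the actin regulator coronin 1A, differed least, at 7.69, 7.82 and 7.81 in knockout against 7.68, 7.63, 7.52 and 7.68 in wild type muscle (0.14 ± 0.05). None of these 6 had an adjusted p under 0.26 in limma.

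In the remaining pair, 1 knockout array stood well above the other knockout arrays. Cd53, a tetraspanin of leukocytes, read 8.59, 9.31 and 8.44 in knockout against 8.13, 7.86, 8.10 and 7.83 in wild type muscle (0.80 ± 0.21, adjusted p = 0.26). Plek, the platelet and leukocyte kinase substrate pleckstrin, read 7.93, 9.01 and 7.75 in knockout against 7.58, 7.29, 7.49 and 7.53 in wild type muscle (0.75 ± 0.29, adjusted p = 0.43). Knockout replicate 2 was the high array in both, by 0.72 for Cd53 and 1.08 for Plek over the next knockout array. Without it the difference was 0.54 for Cd53 and 0.37 for Plek. In both genes all 3 knockout arrays lay above the wild type arrays.

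The 8 resident markers were divided between 3 that lay higher without overlap and 5 that overlapped, while 3.29% of all genes were higher without overlap. None of the 8 passed at an adjusted p under 0.10, which 0.241% of all genes passed upward. Pf4, a chemokine made by platelets and by tissue macrophages, read 9.36, 9.40 and 9.21 in knockout against 9.02, 8.62, 8.96 and 8.84 in wild type muscle (0.46 ± 0.10, adjusted p = 0.18). Mrc1, the mannose receptor CD206, read 9.12, 9.57 and 9.16 in knockout against 8.84, 8.36, 8.90 and 8.62 in wild type muscle (0.60 ± 0.16, adjusted p = 0.27). Folr2, the folate receptor of resident macrophages, read 9.24, 8.91 and 8.83 in knockout against 8.76, 8.11, 8.63 and 8.65 in wild type muscle (0.45 ± 0.17, adjusted p = 0.43). For all 3 the genotypes were apart, and wild type replicate 2 was the lowest array. Of the platelet markers measured beside Pf4, Ppbp read 9.56, 7.43 and 7.41 in knockout against 9.09, 9.08, 8.31 and 8.20 in wild type muscle. The part of platelets in the Pf4 signal was not tested.

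The other 5 resident markers overlapped between genotypes. Lyve1, a hyaluronan receptor of perivascular macrophages and lymphatic vessels, read 9.39, 9.42 and 8.68 in knockout against 9.22, 8.85, 9.05 and 8.90 in wild type muscle. Knockout replicate 3 was the lowest of all 7 arrays for it while replicates 1 and 2 were the highest, so the difference of 0.15 ± 0.19 (95% interval -0.30 to 0.61) became 0.40 without replicate 3, and 0.04 and 0.03 without knockout replicates 1 and 2. It was 0.23 without wild type replicate 1. Stab1, the scavenger receptor stabilin-1, differed by 0.14 ± 0.09 and was 0.09 without knockout replicate 3 and 0.07 without wild type replicate 2. Siglec1, the sialic acid receptor CD169, differed by 0.06 ± 0.04 (-0.04 to 0.15). Cd163, the haemoglobin scavenger receptor, read 7.47, 7.68 and 7.43 in knockout against 7.46, 7.47, 7.50 and 7.47 in wild type muscle, and its difference of 0.05 ± 0.06 turned to -0.03 without knockout replicate 2. Timd4, a phosphatidylserine receptor of long-lived resident macrophages, read 6.96, 6.90 and 7.00 in knockout against 6.98, 7.06, 7.04 and 7.00 in wild type muscle (-0.07 ± 0.04, interval -0.16 to 0.02). Their intervals include 0 and, for Lyve1, also differences as large as that of Mrc1.

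Among monocyte-derived markers the 2 integrin chains were the most even. Itgam, the CD11b chain of monocytes, macrophages and neutrophils, read 7.83, 7.81 and 7.80 in knockout against 7.48, 7.32, 7.55 and 7.42 in wild type muscle (0.37 ± 0.06, adjusted p = 0.096). Itgax, the CD11c chain of dendritic cells and some macrophages, read 6.73, 6.70 and 6.77 in knockout against 6.44, 6.62, 6.49 and 6.49 in wild type muscle (0.22 ± 0.05, adjusted p = 0.19). Clec7a, the β-glucan receptor dectin-1, read 6.61, 6.42 and 6.72 in knockout against 6.33, 6.43, 6.34 and 6.35 in wild type muscle (0.22 ± 0.07, adjusted p = 0.35). Wild type replicate 2 lay within the knockout range for Clec7a. Both Itgax and Clec7a were under the lower quartile of named probe sets.

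The remaining 3 monocyte-derived markers were highest on knockout replicate 2. Ms4a6c, a membrane protein of monocytes, read 7.86, 8.51 and 7.93 in knockout against 7.16, 7.35, 7.62 and 7.16 in wild type muscle (0.78 ± 0.18, adjusted p = 0.23). Its close relatives, looked up after the values were seen, had the same high array, since Ms4a6b read 7.03, 7.46 and 7.01 and Ms4a6d 7.36, 8.47 and 7.18 on the knockout arrays. Cd14, the coreceptor for bacterial lipopolysaccharide, read 7.21, 7.72 and 7.17 in knockout against 6.96, 7.16, 7.05 and 7.16 in wild type muscle (0.28 ± 0.14, adjusted p = 0.54). Csf2rb, the shared β chain of the receptors for GM-CSF, interleukin 3 and interleukin 5, read 7.44, 8.57 and 7.59 in knockout against 7.40, 7.36, 7.48 and 7.43 in wild type muscle (0.45 ± 0.25, adjusted p = 0.61). Without knockout replicate 2 the differences were 0.58 for Ms4a6c, 0.10 for Cd14 and 0.10 for Csf2rb. Csf2rb has a near copy, Csf2rb2, which was also highest on that array (7.79, 8.51 and 7.89 in knockout muscle), so signal of the pair cannot be told apart.

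Of the 7 measured phagocytic genes, 4 lay higher in knockout muscle without overlap of the genotypes (3.29% of all genes did so). Gpnmb, a lysosomal glycoprotein of lipid-laden and debris-clearing macrophages, read 8.63, 8.63 and 8.79 in knockout against 8.04, 8.03, 8.26 and 8.01 in wild type muscle (0.60 ± 0.07, adjusted p = 0.083). Lgals3, the galactose-binding lectin galectin-3, read 9.21, 9.75 and 9.78 in knockout against 8.73, 8.68, 8.99 and 8.68 in wild type muscle (0.81 ± 0.15, adjusted p = 0.14). Msr1, the class A scavenger receptor, read 7.18, 7.35 and 7.26 in knockout against 6.90, 6.83, 6.94 and 6.70 in wild type muscle (0.42 ± 0.07, adjusted p = 0.11). In each of these the lowest knockout array stood above the highest wild type array. Cybb, the catalytic subunit of the phagocyte oxidase, read 8.47, 7.94 and 8.41 in knockout against 7.82, 7.40, 7.77 and 7.63 in wild type muscle (0.62 ± 0.15, adjusted p = 0.25), and knockout replicate 2 was its lowest knockout array.

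Genotypes overlapped for the partner of Cybb and for both remaining uptake receptors. Cyba, the p22phox subunit of the same oxidase, which many cell types express, differed by 0.15 ± 0.07 (0.09 without knockout replicate 2) with genotypes that overlapped. Mertk, the receptor tyrosine kinase by which macrophages take up dying cells, read 7.80, 7.77 and 7.80 in knockout against 7.80, 7.82, 7.88 and 7.80 in wild type muscle, a difference of -0.03 ± 0.03 with a 95% interval of -0.11 to 0.04. Its probe set took only 5 distinct values over the 7 arrays, and whether it responds to Mertk RNA was not tested. Marco, a scavenger receptor of lung and marginal zone macrophages, read 7.43, 7.42 and 7.79 in knockout against 7.48, 7.59, 7.45 and 7.73 in wild type muscle. Its difference of -0.02 ± 0.11 changed sign with the array left out.

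The order of the arrays within a genotype was not shared by the members. Setting ties aside, the highest knockout array was replicate 1 for 6 members, replicate 2 for 16 and replicate 3 for 17, and each of the 3 was the lowest knockout array for 13. Among wild type arrays, replicate 2 was lowest for 17 members, replicate 1 for 11, replicate 4 for 9 and replicate 3 for 3. Knockout replicate 2 exceeded the next knockout array by 1.08 for Plek, 0.98 for Csf2rb, 0.72 for Cd53, 0.58 for Ms4a6c and 0.52 for Cd14, genes singled out after their values were seen.

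Further genes of the same cells were read from wider lists. Of 33 measured macrophage and monocyte genes outside the members, 27 had a positive difference. The unadjusted threshold was passed by 11 upward and by 1 downward, the median was 0.18, and 0 had an adjusted p under 0.05 in limma. At the unadjusted threshold 3.93% of all genes were higher and 6.69% lower. Mmp12, the macrophage elastase, read 8.31, 8.36 and 7.80 in knockout against 7.19, 7.31, 7.24 and 7.34 in wild type muscle (0.89 ± 0.13, adjusted p = 0.096). Lgmn, a lysosomal protease, differed by 0.52 ± 0.08 (adjusted p = 0.097) and Adgre1, a surface antigen of mouse macrophages, by 0.58 ± 0.10 (adjusted p = 0.12). Cd36, which muscle fibres and capillaries also express, was the lower one at -0.54 ± 0.12 (adjusted p = 0.18).

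Of 15 measured products of macrophage activation, 2 passed the unadjusted threshold upward and 0 downward, against 3.93% and 6.69% of all genes. Their median was 0.09, and 0 had an adjusted p under 0.05 in limma. Differences ran from -0.27 to 0.54, the largest in a gene that was highest on knockout replicate 2. Several of the 15 lay under the lower quartile of named probe sets (6.76), where a difference can be compressed. Mgl2, a lectin of alternatively activated macrophages, differed by 0.38 ± 0.10 and Tgfb1, the cytokine TGF-β1, by 0.26 ± 0.09 (adjusted p = 0.26 and 0.38). Il1b, the cytokine interleukin 1β, differed by -0.13 ± 0.06 and Nos2, the inducible nitric oxide synthase, by -0.14 ± 0.06 (adjusted p = 0.47 and 0.48). Whether this list differs from the members was not tested.

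Markers of other cells were read on the same arrays. At an unadjusted p under 0.05 in limma, 0 of 10 neutrophil, 0 of 9 T and NK cell and 0 of 6 B cell markers differed, with list medians of 0.04, 0.04 and 0. Over all genes 3.93% were higher and 6.69% lower at that threshold. Neutrophil markers had a mean level of 6.44 to 6.52 on knockout and 6.43 to 6.51 on wild type arrays. T and NK cell markers lay at 6.67 to 6.75 on knockout and 6.63 to 6.73 on wild type arrays, and B cell markers at 6.57 to 6.64 on knockout and 6.55 to 6.68 on wild type arrays. The genes of smallest p in these lists were Ngp (0.07 ± 0.05), Il7r (0.07 ± 0.04) and Fcer2a (-0.11 ± 0.06). Arrays give no 0, so absence of these cells cannot be read from such levels. Mast cell markers had 1 of 6 higher, Cpa3 at 0.45 ± 0.16, and dendritic cell markers 1 of 7, Cd209a at 0.55 ± 0.23, whose values of 7.93, 8.87 and 7.98 in knockout muscle peaked on replicate 2. Mean levels were 7.03 to 7.27 in knockout and 6.94 to 7.07 in wild type muscle for mast cells, and 7.04 to 7.14 in knockout and 6.95 to 7.05 in wild type muscle for dendritic cells.

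Levels of red cell and platelet markers differed between arrays within a genotype. The 2 measured red cell markers averaged 8.94, 7.65 and 7.96 on the knockout arrays and 8.23, 8.60, 8.13 and 8.14 on the wild type arrays, with 0 of 2 past the unadjusted threshold (Slc4a1 at 0.10 ± 0.16). The 4 measured platelet markers averaged 8.21, 7.58 and 7.69 on the knockout arrays and 8.10, 8.12, 7.75 and 7.80 on the wild type arrays, with 0 of 4 past it (Ppbp at -0.54 ± 0.56). The median over the members was 0.37, 0.41 and 0.35 on knockout replicates 1 to 3. The part of blood content in the members' differences was not tested.

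Several tissue lists differed between the genotypes on the same arrays. Blood endothelial markers were lower, 7 of 10 at an unadjusted p under 0.05 and all 10 in sign, with mean levels of 9.11 to 9.25 in knockout and 9.42 to 9.60 in wild type muscle (median -0.31, Cdh5 at -0.32 ± 0.06). For those 7 the genotypes also did not overlap, against 5.33% of all genes lower without overlap. The unadjusted threshold was passed by 3.93% of all genes upward and by 6.69% downward. Fibro-adipogenic markers had 4 of 9 higher (median 0.41, Dpt at 0.42 ± 0.08), with mean levels of 10.34 to 10.71 in knockout and 10.05 to 10.41 in wild type muscle. Regenerating fibre markers had 5 of 9 higher and 1 lower (median 0.34), with mean levels of 8.75 to 8.85 in knockout and 8.44 to 8.49 in wild type muscle. Among them Myh3, the embryonic myosin heavy chain, was higher by 0.66 ± 0.05 (adjusted p = 0.022). Lymphatic endothelial markers, which matter for Lyve1 and Stab1, had 1 of 5 higher (Pdpn at 0.41 ± 0.13), with mean levels of 7.51 to 7.65 in knockout and 7.44 to 7.57 in wild type muscle. Fast muscle fibre markers had 1 of 12 higher (Casq1 at 0.08 ± 0.03). The part of these lists in the members' differences was not tested.

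**Figure D4:**
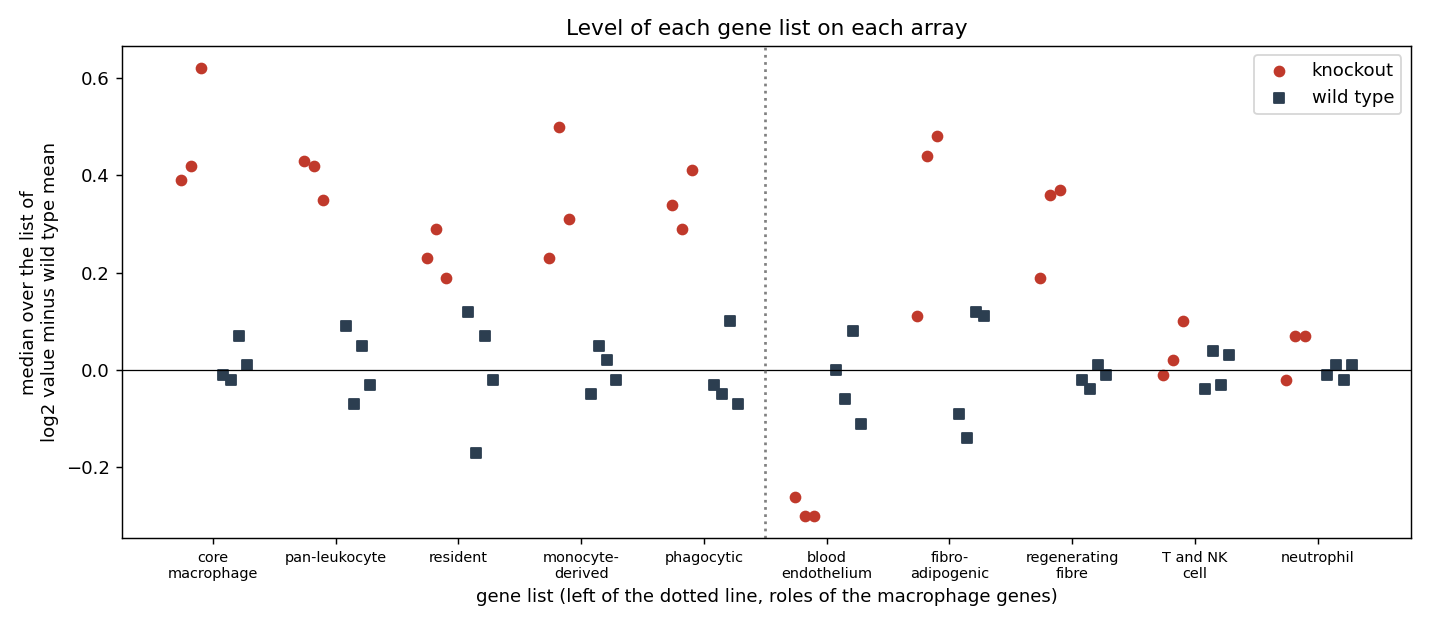
Median over each gene list of the log2 value minus the wild type mean of the gene, for each knockout (red circles, left) and wild type (dark squares, right) array, with the 5 roles of the macrophage genes left of the dotted line. Knockout arrays lie above wild type arrays in all 5 roles and in regenerating fibre markers, below them in blood endothelial markers, and among them in T and NK cell markers.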

How the data were processed

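Muscle RNA of 3 knockout and 4 wild type mice was labelled with biotin (100 ng of RNA and an Ambion WT kit, per the labels). The authors deposited 1 table of values for 28856 probe sets on the 7 arrays, read here as log2 expression. The base is inferred, since values ran from 4.41 to 14.65 and a 16-bit scanner reaches 11.09 as a natural log. Not given in the sources used here are the authors' steps of background correction, normalization and summarization. Scaling of whole arrays hides a change common to every gene, and dim probe sets can be compressed. The number of value columns left unused was 0.

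Names came from GEO's platform annotation: 21789 probe sets had 1 symbol, 1621 several and 5446 none here, and only the first kind was tested. Of these 21698 matched RefSeq (GRCm38.p6) by gene ID, all 41 measured members included. Each gene was read through its brightest probe set, and members had 1 each. Knockout minus wild type was fitted without covariates in limma 3.58.1 under R 4.3.3. No filter was used, p-values were adjusted over the 21789 by Benjamini-Hochberg, and the fit was tested on simulated data. Arrays are 1 mouse each, and their number limits the precision. The members, role groups and lists were chosen with earlier results of these data known. All members are named, with array values for those at an unadjusted p under 0.05 and the 2 of smallest p per role. From other lists the 4 genes of smallest p (macrophage lists) or 1 (cell type lists) are named. The 14 alternatives were a replicate block, array weights, a trended robust prior, median centring or quantile normalization of the arrays, leaving out probe sets whose mean lay under the lower quartile (6.76), averaging the probe sets of each gene, and each array left out.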

Additional observations from a re-analysis of the deposited data

Results flagged for a closer look

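Among the 41 measured members, 5 had 1 wild type array set apart from the other 3 by Dixon's criterion for a group of 4 (95% level), which chance gives for about 1 in 20 groups. Csf1r read 8.31 on wild type replicate 2, with the others from 8.66 to 8.73. Clec7a read 6.43 on the same array, with the others from 6.33 to 6.35. Irf8 read 7.95 on wild type replicate 3, with the others from 8.03 to 8.04, and Gpnmb read 8.26 there, with the others from 8.01 to 8.04. Aif1 read 6.82 on wild type replicate 4, with the others at 6.73. Groups of 3 are not tested, so the high values of knockout replicate 2 were not assessed in this way, and 0 of the 6 medians over all members or a role met the criterion.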

How the results depend on the processing

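The replicate numbers of the labels are shared between genotypes, but nothing says that they pair mice. Across genes the deviations of same-numbered arrays had r = 0.30 for number 1, 0.15 for number 2 and -0.20 for number 3. Between arrays of different numbers r ran from -0.27 to 0.20. With the replicate block, 0 members had an adjusted p under 0.05 (Lyz2 at 0.24), 24 were higher at an unadjusted p under 0.05, and Marco was 0.04. The count of 1 was kept in the 6 other fits that used all arrays. Among these, averaging probe sets could not change a member's difference, since members had 1 each. The trended robust prior likewise alters only the error and not the difference. Over the fits that each dropped an array the count was 0 to 1, with 0 without wild type replicate 1, 3 or 4. Over all 14 alternatives the adjusted p of Lyz2 ran from 0.0013 to 0.24. Marco ran from -0.14 to 0.04 and Cd163 from -0.03 to 0.10 with 1 array left out. The filter on dim probe sets dropped 5 members, Aif1 and Ms4a7 among them, and the core macrophage median over the rest was 0.72. The count at an adjusted p under 0.10 was 0 with the replicate block and 7 to 10 in the other fits of all arrays. Medians over members and roles otherwise moved by less than the spread between arrays, and no scaling moved the median of all genes past -0.022. Of the 29 members at an unadjusted p under 0.05, 7 lost it without at least 1 array: Cd48, Clec7a, Coro1a, Csf1r, Folr2, Plek and Spi1. The cause of these changes was not tested.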
